A study of Mus musculus with 16 samples.

Results

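Axon guidance ligands and their receptors were followed across the cell classes and locations of the pubertal mouse mammary gland. The group held 10 genes of the 17721 in the count table: the class 3 semaphorins Sema3a, Sema3b and Sema3c, the Slit ligands Slit2 and Slit3, the netrin Ntn1, the Slit receptor Robo1, the netrin and RGM receptor Neo1, and the semaphorin co-receptors Nrp1 and Nrp2. They were chosen by name from the families, and each of them had a row in the table.

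Semaphorins, Slits and netrins are secreted proteins that were named for steering growing axons. Class 3 semaphorins bind neuropilins, which signal together with plexins, while Slits bind Robo receptors and netrin-1 binds DCC, neogenin and UNC5 receptors. In the mammary gland netrin-1 and neogenin are known for holding the cell layers of the terminal end bud together, and SLIT and ROBO1 for restraining basal cell growth and branching. Sema3a is also the gene used to drive an inducible Cre in tracing mice of the same study, which were not analysed here.

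Single cells came from 4 nipple, 6 duct and 6 terminal end bud (TEB) fragments, each dissected from mammary glands of C57BL/6 mice. Per the study's figure legends the animals were pubertal and carried K14-Cre with the R26-mTmG reporter, in which the keratin 14 promoter drives Cre in the epithelium. By these legends all 3 groups share that background, and none received a treatment. The methods also name wild-type mice as a source of fragments dissected by location. The labels do not tie a fragment to a mouse, so p-values measure only the spread between fragments, some of which may share an animal. Fragments are written by location and number, N for nipple, D for duct and T for TEB.

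The table held 1419 cells with a median of 29384 unique molecular identifiers (UMIs, each marking 1 captured RNA molecule), and fragment totals ran from 1856141 to 5233122 UMIs. After filtering, 1317 cells were grouped into 294 basal-like, 423 ER+ luminal-like, 179 ER- luminal-like, 252 fibroblast-like, 78 myeloid-like and 19 pericyte-like cells, and 72 cells, whose leading genes held mast cell genes (Tpsb2, Cma1, Cpa3) and endothelial genes (Emcn, Selp), stayed unnamed. Each of the 95 well barcodes was used in more than 1 fragment and none was repeated within a fragment. Leaving the guidance genes out of the clustering gave the same levels and calls. A level below is in CPM, the UMIs of a gene per 1000000 UMIs of the cells of 1 class in 1 fragment, for fragments with at least 5 such cells. Since the libraries read 3′ ends, CPM of different genes can be set side by side without a length correction.

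Basal-like cells of the TEB stood apart from the other basal-like cells, with Sema3b among the 10 leading genes of their cluster. All but 1 of the 82 came to lie in a cluster of their own (cluster 5, which also held 1 nipple cell), while nipple and duct basal-like cells shared cluster 1. The summed level of the 10 basal markers had a median of 6778 CPM in TEB, against 19342 in nipple and 25131 in duct, and all 10 differed across locations. RNA of other classes was present too: the 9 fibroblast markers summed to 1009 to 1941 CPM in nipple, 344 to 552 in duct and 506 to 811 in TEB basal-like cells, and 7 of the 9 differed across locations. The 10 ER- luminal markers, some of which are shared with the ER+ list, had medians of 5501 CPM in nipple, 6452 in duct and 2996 in TEB basal-like cells (5 differed), and the 10 ER+ luminal markers 3339, 4951 and 1965 CPM (4 differed). The part of these markers in the results on guidance genes was not tested.

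**Figure D1:**
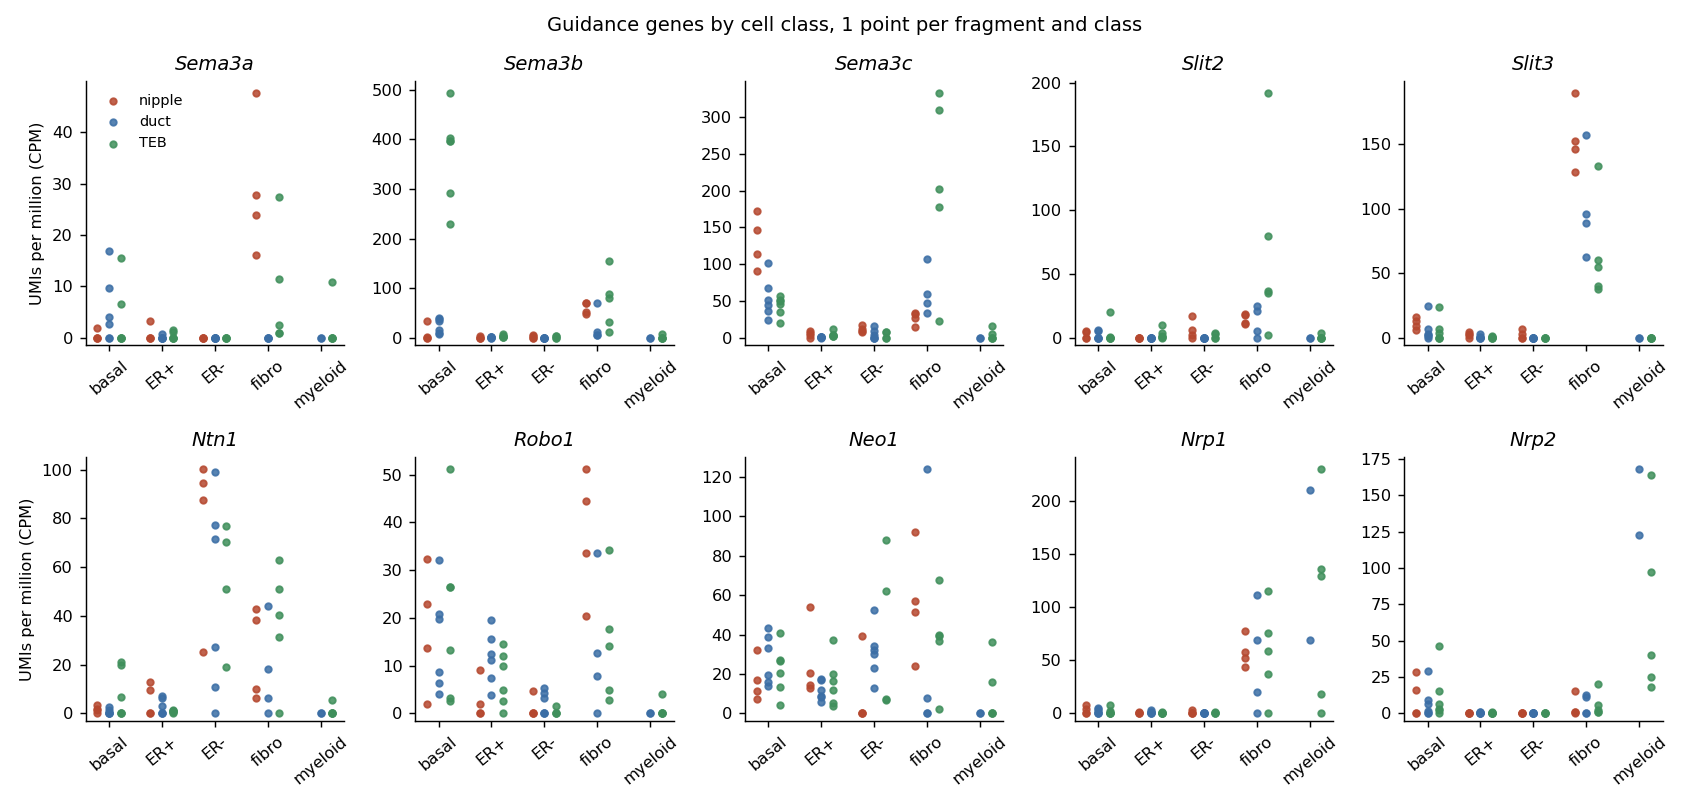
Levels of the 10 guidance genes in CPM, with 1 point for each fragment and cell class and colour for location; each panel has its own linear axis. Sema3b was high in TEB basal-like cells (230 to 493 CPM), Slit3 in fibroblast-like cells, Ntn1 in ER- luminal-like cells, and Nrp1 and Nrp2 in myeloid-like cells.

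The classes differed in which members reached 100 UMIs, a cutoff that was not scaled to depth. Fibroblast-like cells held at least 100 UMIs of 9 of the 10 genes, basal-like cells of 4 (Sema3b, Sema3c, Robo1, Neo1), ER+ luminal-like cells of 2 (Robo1, Neo1), ER- luminal-like cells of 2 (Ntn1, Neo1) and myeloid-like cells of 2 (Nrp1, Nrp2). Class totals ran from 1698346 UMIs in myeloid-like to 17067099 in ER+ luminal-like cells. Robo1 thus counted in ER+ luminal-like cells at a pooled 8.14 CPM, while Neo1 at 9.42 CPM in myeloid-like cells did not. These class levels are a description, because the classes were made from the same cells. UMIs can also reach a well from other wells: the share of UMIs from other classes, estimated from marker genes, averaged 3.63% to 12.3% over classes and locations. Where a gene's UMIs were near or below the number expected from that share, they were read as background.

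Sema3b, a secreted semaphorin, was the guidance gene with the highest level of any member in any class. Its level in basal-like cells was 33.9, 0, 0 and 1.79 CPM in nipple fragments N21 to N24. Duct fragments lay between 6.95 and 40.2 CPM with a median of 25.0, and TEB fragments between 230 and 493 with a median of 397. Every TEB fragment was above every duct and nipple fragment, and duct and nipple overlapped.

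The TEB excess of Sema3b passed the test in both pairs. Nipple was lower than TEB by a log2 difference of -5.2 (SE 0.76; edgeR quasi-likelihood test, Benjamini-Hochberg adjusted p = 6.52e-05), and duct was lower than TEB by -3.75 (SE 0.58; edgeR adjusted p = 1.45e-04). Nipple and duct differed by -1.45 (SE 0.79; edgeR adjusted p = 0.365), which did not pass.

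The Sema3b signal was spread over most TEB basal-like cells. With every cell thinned to 5000 UMIs, 59 of 82 TEB cells (72.0%, exact binomial interval 60.9 to 81.3%) had a Sema3b UMI, against 5 of 115 duct cells (4.35%) and 1 of 97 nipple cells (1.03%); unthinned, the shares were 89.0%, 16.5% and 2.06%. ER+ luminal-like cells of the TEB gave 2 of 170 (1.18%) at the same depth, and the cell with most Sema3b UMIs held 8.38% of the TEB total. The TEB sum of 1491 UMIs compares with 57.4 expected from other wells. Intervals cover counting error only.

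In the nipple, 18 of the 19 Sema3b UMIs came from 1 cell, and that cell was the nipple cell that clustered with TEB basal-like cells. Without fragment N21, which holds it, the other 3 nipple fragments had 1 UMI, and the fitted log2 difference to TEB was -8.63. Nipple fragment N21 therefore sets the size of this difference while its direction held in each fit.

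Sema3c, the semaphorin that signals through either neuropilin with plexin D1, ran the other way in the same cells. Basal-like cells had 113, 172, 147 and 91.4 CPM of Sema3c in nipple fragments N21 to N24. Duct fragments ranged from 24.1 to 101 CPM with a median of 47.9, and TEB fragments from 19.8 to 56.2 with a median of 47.7. Each nipple fragment was above each TEB fragment, whereas the highest duct fragment (D51) was above the lowest nipple fragment (N24).

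Nipple exceeded TEB by a log2 difference of 1.80 in Sema3c (SE 0.40; edgeR adjusted p = 0.00120). Nipple exceeded duct by 1.27 (SE 0.39; edgeR adjusted p = 0.0434), and that call was lost when any of 8 fragments (N21, N22, N23, D31, D32, D52, D61 or D62) was left out in turn (edgeR adjusted p 0.0518 to 0.167) and when cells were thinned to equal depth (edgeR adjusted p = 0.153). Duct and TEB differed by 0.52 (SE 0.37; edgeR adjusted p = 0.440). The fibroblast markers were also highest in nipple basal-like cells. Nipple fibroblast-like cells had 14.5 to 33.3 CPM of Sema3c, and 6.16 of the 287 nipple basal-like UMIs were expected from other wells.

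**Figure D2:**
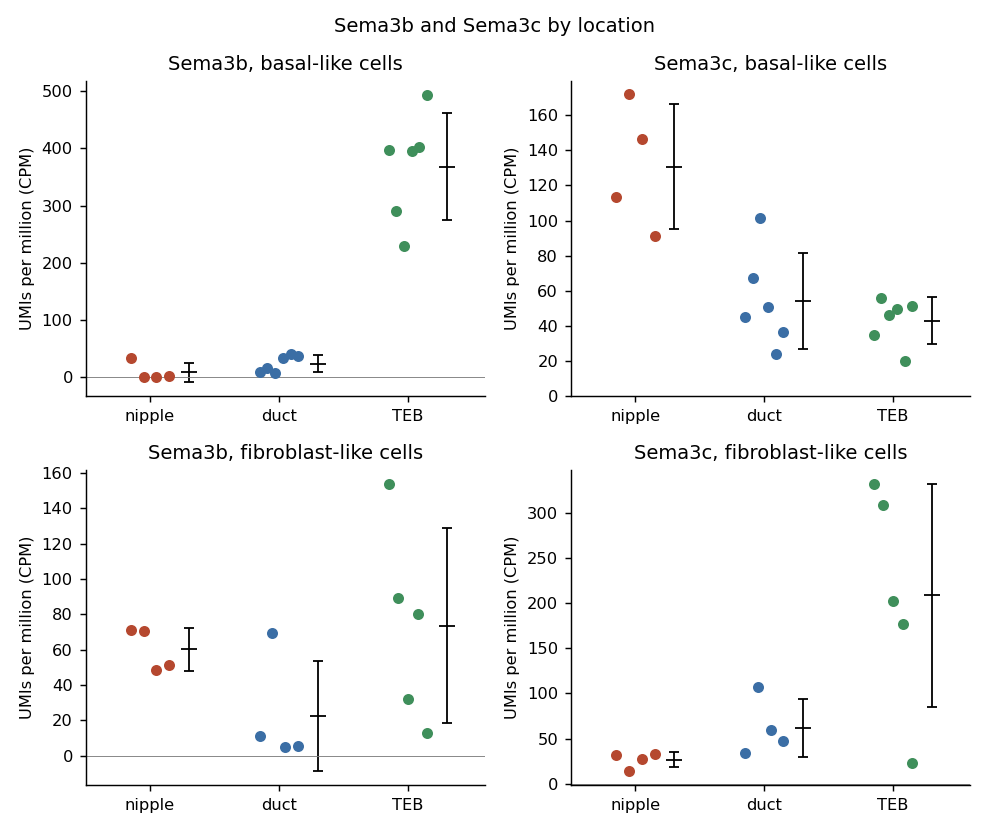
Levels of Sema3b and Sema3c in CPM by location, 1 point per fragment, with mean and SD at the right of each group. In basal-like cells Sema3b was highest in TEB and Sema3c in nipple, while in fibroblast-like cells Sema3c was highest in TEB apart from fragment T42 at 22.7 CPM.

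These were the basal-like members called across locations. Of 10 members, 4 passed the filter on low counts and 2 were called, beside 20.6% of the 7316 genes tested; by pair the share called was 6.29% for nipple against duct, 18.7% for nipple against TEB and 10.4% for duct against TEB. The receptors Robo1 and Neo1, the other members tested, did not pass (edgeR adjusted p = 0.959 and 0.741).

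Robo1 levels in basal-like cells lay between 1.89 and 32.2 CPM in nipple, 4.17 and 32.1 in duct and 2.55 and 51.2 in TEB, so the 3 groups overlapped across their ranges. Neo1 levels ran from 7.17 to 32.2 CPM in nipple, 13.9 to 43.3 in duct and 4.13 to 40.9 in TEB. The nipple minus TEB difference was -0.12 (SE 0.85) for Robo1 and -0.17 (SE 0.71) for Neo1 on the log2 scale, intervals wide enough to hold a change of over 1 log2 unit either way.

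Sema3a was sparse in basal-like cells. It had 38 UMIs in 7 of the 16 fragments and in 11 of 294 cells, and did not pass the filter on low counts. Nipple held 1 UMI, in N21, duct 13 UMIs in 4 fragments, and TEB 24 UMIs in T42 and T43 alone, with 0 in the other 4 TEB fragments. Duct levels reached 16.9 CPM in D52 and TEB levels 15.5 CPM in T43. The nipple UMI compares with 1.89 expected from other wells, and the 13 duct and 24 TEB UMIs with 0.32 and 1.75. The pooled TEB rate was 1.43 times the duct rate, with an exact counting interval of 0.70 to 3.06. Since 13 of the 24 TEB UMIs came from 1 cell, this interval understates the error, and a difference between duct and TEB was not detectable at this depth. By PCR and staining the study reports high Sema3a in TEBs, including their basal cells. Its traced cells in duct and nipple were mainly stromal. The study also states that its single-cell data did not detect expression in such cells efficiently.

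The remaining members were low in basal-like cells. Slit2, Slit3, Ntn1, Nrp1 and Nrp2 averaged 2.71, 7.40, 3.68, 2.16 and 10.3 CPM over the 16 fragments. A TEB cell of fragment T43 held 17 of its location's 22 Slit2 UMIs, 23 of its 29 Slit3 UMIs and 21 of its 144 Sema3c UMIs. Its fibroblast markers summed to 1788 CPM against a median of 599 CPM in the other 81 TEB basal-like cells, the highest of which had 3699 CPM, and its basal markers to 7152 CPM against a median of 6535 CPM. Without it the T43 level fell from 20.3 to 4.17 CPM for Slit2 and from 24.2 to 2.09 CPM for Slit3.

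In fibroblast-like cells all 10 members passed the filter. Sema3c alone was called across locations by edgeR, beside 1.70% of 8489 genes. At an unadjusted p under 0.05 there were 4 members (Sema3a, Sema3c, Slit2 and Slit3), beside 1072 of the 8489 genes, and DESeq2 called 2 (Sema3a and Sema3c). By pair the share called was 0.200% for nipple against duct, 1.54% for nipple against TEB and 0.271% for duct against TEB. Nipple, TEB and duct were represented by 116, 98 and 38 fibroblast-like cells. Fragments that held at least 5 of them numbered 4 in nipple, 5 in TEB and 4 in duct, and duct sums were as small as 89639 UMIs. The 10 basal markers summed to 182 to 206 CPM in nipple, 271 to 530 in duct and 40.2 to 2199 in TEB fibroblast-like cells (1 differed across locations). The 10 ER+ luminal markers had medians of 958 CPM in nipple, 2902 in duct and 3195 in TEB (2 differed), rising from nipple to TEB as Sema3c did. The ER- luminal markers, which share Krt8 and Krt18 with that list, had 545, 1123 and 600.2 CPM (2 differed). Most of the ER+ median in TEB thus came from other genes of its list, which also holds Ly6a. These sums do not tell luminal RNA from genes that fibroblast-like cells express themselves. The part of the marker lists in the results was not tested.

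Sema3c in fibroblast-like cells was low in nipple, at 32.05, 14.5, 27.1 and 33.3 CPM in N21 to N24. Duct fragments D32, D52, D61 and D62 had 33.5, 107, 59.4 and 46.8 CPM. TEB fragments T31 to T34 and T42 had 332, 309, 202, 177 and 22.7 CPM, so that 4 of 5 TEB fragments were above each nipple and duct fragment and T42, with 6 fibroblast-like cells, was among the nipple values.

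Nipple was lower than TEB by -2.89 (SE 0.56; edgeR adjusted p = 0.00405), and the range over fits that left out 1 fragment was -3.18 to -2.67. Nipple and duct differed by -1.18 (SE 0.58; edgeR adjusted p = 0.486) and duct and TEB by -1.71 (SE 0.55; edgeR adjusted p = 0.204), neither passing. Sema3c thus had its highest level in the nipple among basal-like cells and in the TEB among fibroblast-like cells. A class by location term for these 2 classes, chosen after the location differences were seen, was called for Sema3c (edgeR adjusted p = 3.94e-04) and for Sema3b (edgeR adjusted p = 0.00538), 2 of 9 members tested, beside 3.34% of 8605 genes. The term for nipple against TEB was 4.45 (SE 0.71) for Sema3c and -6.04 (SE 1.10) for Sema3b.

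The fibroblast-like class was made of 4 clusters that were unevenly split over the locations. Cluster 4, led by Crabp1, Cthrc1 and Penk, held 86 nipple cells and 1 duct cell. Cluster 9, led by Pi16 and holding Dpp4, was 64 TEB cells, 3 duct cells and 1 nipple cell. Cluster 10, with Slit2 among its leading genes, was 18 TEB and 6 duct cells, while cluster 7, led by Myoc, had 29 nipple, 28 duct and 16 TEB cells.

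Within these clusters the pooled Sema3c level was 347 CPM in TEB cells of cluster 9 (exact Poisson interval 325 to 370) and 17.6 CPM in nipple cells of cluster 4 (13.5 to 22.7). In cluster 7, the cluster found at all 3 locations, it was 41.99 CPM in nipple (31.1 to 55.5), 78.4 in duct (61.3 to 98.7) and 19.4 in TEB (9.30 to 35.7). The TEB excess of the class therefore sat in cluster 9 and not in the TEB cells of cluster 7. All 20 fibroblast-like cells of T31 were in cluster 9, while the 6 of T42 were 2 cells of cluster 7 and 4 of cluster 10. How far cluster make-up and level within a cluster each contribute was not tested, and cells of 1 fragment are not replicates.

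**Figure D3:**
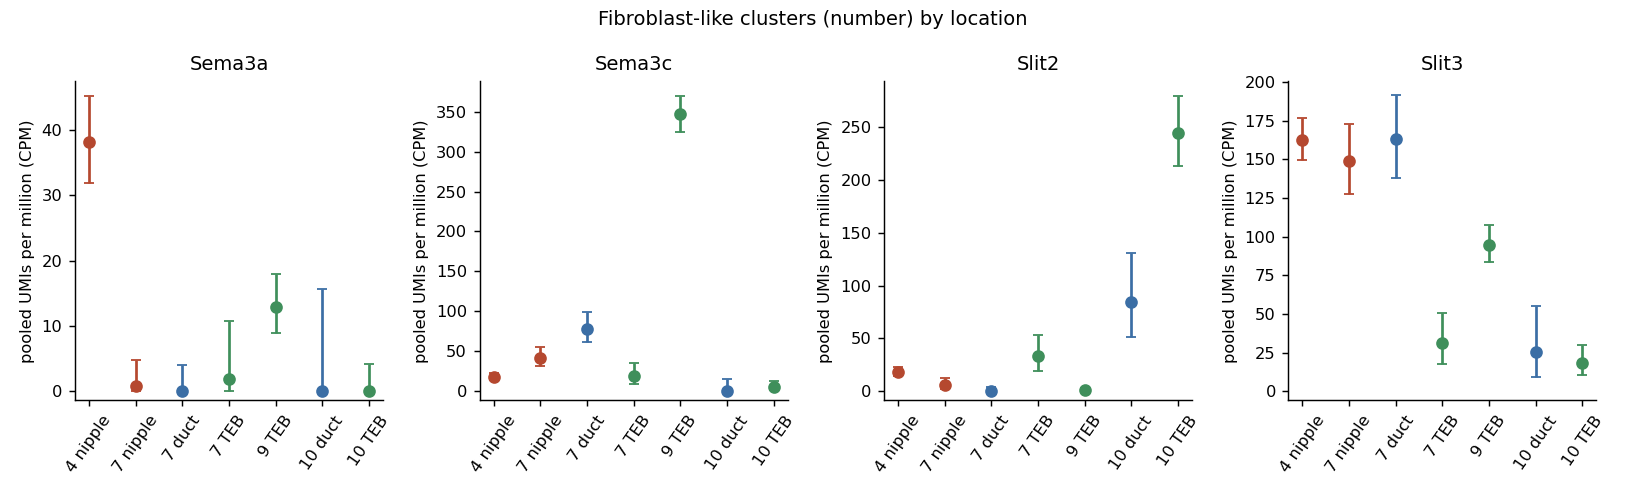
Pooled level in CPM of 4 ligands in each fibroblast-like cluster and location with at least 5 cells; bars are exact 95% Poisson intervals, which cover counting error only. Sema3a was highest in cluster 4 of the nipple, Sema3c in cluster 9 of the TEB and Slit2 in cluster 10.

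Sema3a, a collapsing signal for growth cones and for endothelial cells, had its highest mean level here in nipple fibroblast-like cells. Its level was 47.6, 23.9, 27.7 and 16.2 CPM in N21 to N24. It was 0 in all 4 duct fragments, and in TEB it was 27.4 CPM in T31, 11.4 in T34 and 0.97 to 2.52 in the other 3. The nipple fragments were all above duct, and T31 lay within the nipple range.

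The difference of Sema3a across locations did not pass after adjustment (edgeR adjusted p = 0.130), although DESeq2 called it. Pooled over fragments, nipple was at least 9.66-fold higher than duct (133 UMIs against 0, with 3 UMIs over the group as the floor) and 3.08 times TEB (counting interval 2.11 to 4.60). Both values cover counting error only and ignore the spread between fragments. Of the 35 TEB UMIs, 28 were in T31, and 18 of these were in 1 cell. In the fit, nipple minus TEB was 1.77 (SE 1.01; edgeR adjusted p = 0.637). Of the 133 nipple UMIs, 132 were in cluster 4, where the pooled level was 38.2 CPM. Nipple cells of cluster 7 had 1 UMI (0.86 CPM), and TEB cells of cluster 9 had 12.9 CPM.

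Sema3b was also present in fibroblast-like cells of all 3 locations. Nipple fragments had 70.9, 70.5, 48.2 and 51.2 CPM, duct fragments 11.2, 69.3, 5.17 and 5.203 CPM, and TEB fragments 154, 89.2, 32.3, 80.0 and 12.6 CPM in the order T31 to T34 and T42. D52 was the duct fragment that reached the nipple values. The difference across locations did not pass (edgeR adjusted p = 0.447).

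Slit2, a repellent ligand of Robo receptors, was low in nipple fibroblast-like cells at 10.7, 17.6, 18.5 and 11.9 CPM. In duct it was 0, 25.2, 5.17 and 20.8 CPM. TEB fragments T31 to T34 and T42 had 1.96, 34.9, 36.4, 80.0 and 191.6 CPM, so 4 of the 5 were above the nipple and duct fragments and T31 was below every nipple fragment. The nipple minus TEB difference was -2.03 (SE 0.82; edgeR adjusted p = 0.330), and the test across locations gave edgeR adjusted p = 0.255. Slit2 was highest in cluster 10, at 245 CPM in TEB cells (213 to 280) and 84.5 CPM in duct cells (51.6 to 131), against 0.76 CPM in TEB cells of cluster 9.

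Slit3, the other Slit ligand measured here, was the most abundant guidance ligand of nipple fibroblast-like cells, with 152.5, 129, 189.6 and 147 CPM. Duct fragments had 89.2, 63.0, 158 and 96.3 CPM, and TEB fragments 133, 55.3, 60.6, 40.01 and 37.8 CPM. TEB fragment T31 and duct fragment D61 lay within the nipple range and the other TEB and duct fragments lay below it. Nipple exceeded TEB by 1.30 (SE 0.42; edgeR adjusted p = 0.144), and the test across locations gave edgeR adjusted p = 0.233. By cluster, Slit3 was 162 CPM in cluster 4, 149 and 163 CPM in nipple and duct cells of cluster 7, 94.7 CPM in TEB cells of cluster 9, and 31.02 and 18.3 CPM in TEB cells of clusters 7 and 10.

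**Figure D4:**
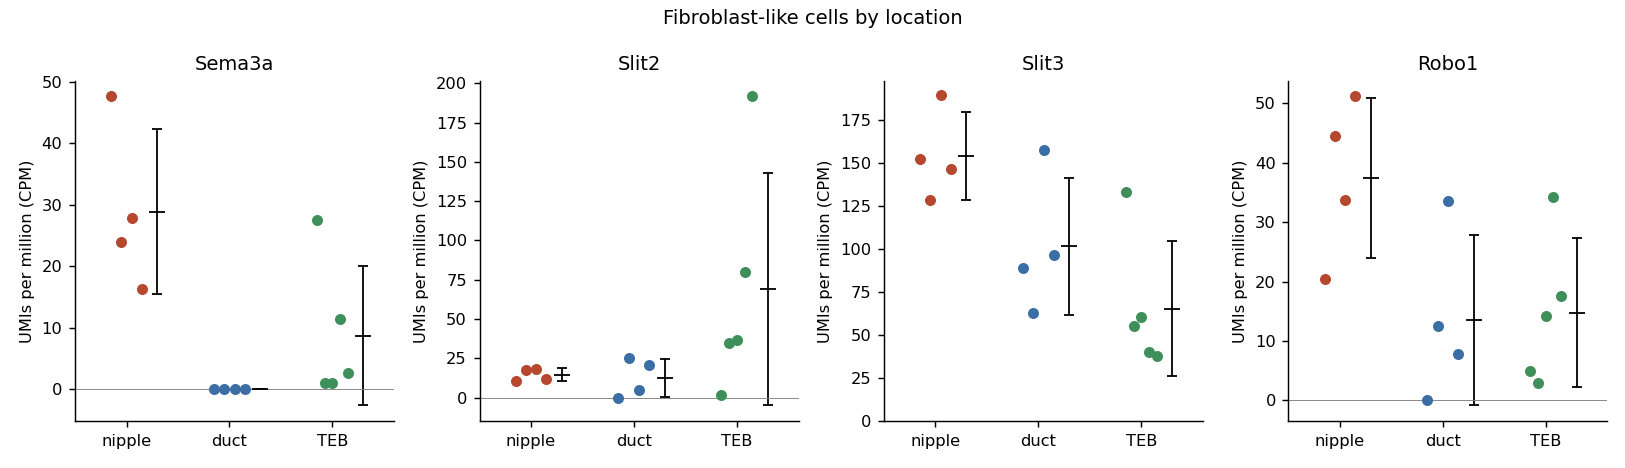
Levels in CPM of 3 ligands and the receptor Robo1 in fibroblast-like cells by location, 1 point per fragment, with mean and SD. None of the 4 passed the edgeR test across locations: Sema3a and Slit3 were higher in most nipple fragments, and Slit2 reached 191.6 CPM in TEB fragment T42.

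Ntn1, the netrin ligand, had its highest class level in ER- luminal-like cells, at 57.9 ± 35.0 CPM (SD, n = 14). Nipple fragments had 100.3, 25.0, 87.5 and 94.7 CPM, duct fragments ranged from 0 to 98.8 with a median of 49.4, and TEB fragments T32, T33, T34 and T42 had 70.5, 50.9, 18.9 and 76.7 CPM. The groups overlapped, and the test across locations gave edgeR adjusted p = 0.818. The nipple minus TEB difference was 0.61 (SE 0.73).

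In the other classes Ntn1 was 27.0 ± 21.3 CPM in fibroblast-like cells (SD, n = 13), 3.68 ± 6.83 in basal-like cells (n = 16) and 2.77 ± 3.995 in ER+ luminal-like cells (n = 16). At 5000 UMIs per cell, 32 of 178 ER- luminal-like cells had an Ntn1 UMI (18.0%, interval 12.6 to 24.4%), against 4 of 423 ER+ luminal-like cells (0.95%); unthinned, the shares were 35.2% and 5.91%. The median depth of these classes ran from 20114 to 45127 UMIs per cell before thinning. In basal-like cells 36 of the 42 UMIs were in TEB, 21 of them in 1 cell of T43, and 13.6 were expected from other wells.

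Neo1, the neogenin receptor, was found in all 4 classes tested, and also in pericyte-like and myeloid-like cells. It averaged 41.8 ± 37.4 CPM in fibroblast-like (n = 13), 27.7 ± 26.4 in ER- luminal-like (n = 14), 22.8 ± 12.2 in basal-like (n = 16) and 16.6 ± 12.8 in ER+ luminal-like cells (n = 16). Neighbours in that order lay within 1 SD of each other, and the difference between the ends of the order was not tested. In ER- luminal-like cells nipple fragments N21, N22 and N24 had 0 CPM and N23 had 39.1 CPM, of whose 17 UMIs 16 came from 1 cell. Duct fragments of that class had 13.01 to 52.4 CPM and TEB fragments 6.72 to 88.1, and the test across locations did not pass (edgeR adjusted p = 0.624). In ER+ luminal-like cells nipple fragments had 12.9 to 53.9 CPM, duct 5.70 to 17.6 and TEB 4.02 to 37.4 (edgeR adjusted p = 0.615).

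Robo1, the Slit receptor, was found in fibroblast-like, basal-like and ER+ luminal-like cells at 21.4 ± 16.6 (n = 13), 17.9 ± 13.8 (n = 16) and 7.81 ± 6.15 CPM (n = 16), and at 1.36 ± 2.06 CPM (n = 14) in ER- luminal-like cells. Among fibroblast-like cells nipple fragments had 20.4, 44.6, 33.7 and 51.2 CPM, duct fragments 0, 12.6, 33.6 and 7.81, and TEB fragments 4.90, 2.91, 14.1, 34.3 and 17.6, and the test across locations gave edgeR adjusted p = 0.590. In ER+ luminal-like cells Robo1 was 9.20, 0, 2.07 and 0 CPM in nipple, 3.8003 to 19.6 in duct and 0 to 14.5 in TEB, and did not pass (edgeR adjusted p = 0.539).

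No member was called in luminal cells. Neo1 and Robo1 were tested in ER+ luminal-like cells, and neither had an unadjusted p under 0.05 or a call by DESeq2; the share of genes called there was 5.96% across locations, 2.09% for nipple against duct, 6.03% for nipple against TEB and 1.68% for duct against TEB. Neo1 and Ntn1 were tested in ER- luminal-like cells with the same outcome, beside 4.19% across locations and 1.60%, 4.68% and 1.09% for the same 3 pairs. Without nipple fragment N23 Neo1 was called in ER- luminal-like cells, the other 3 nipple fragments then being at 0.

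**Figure D5:**
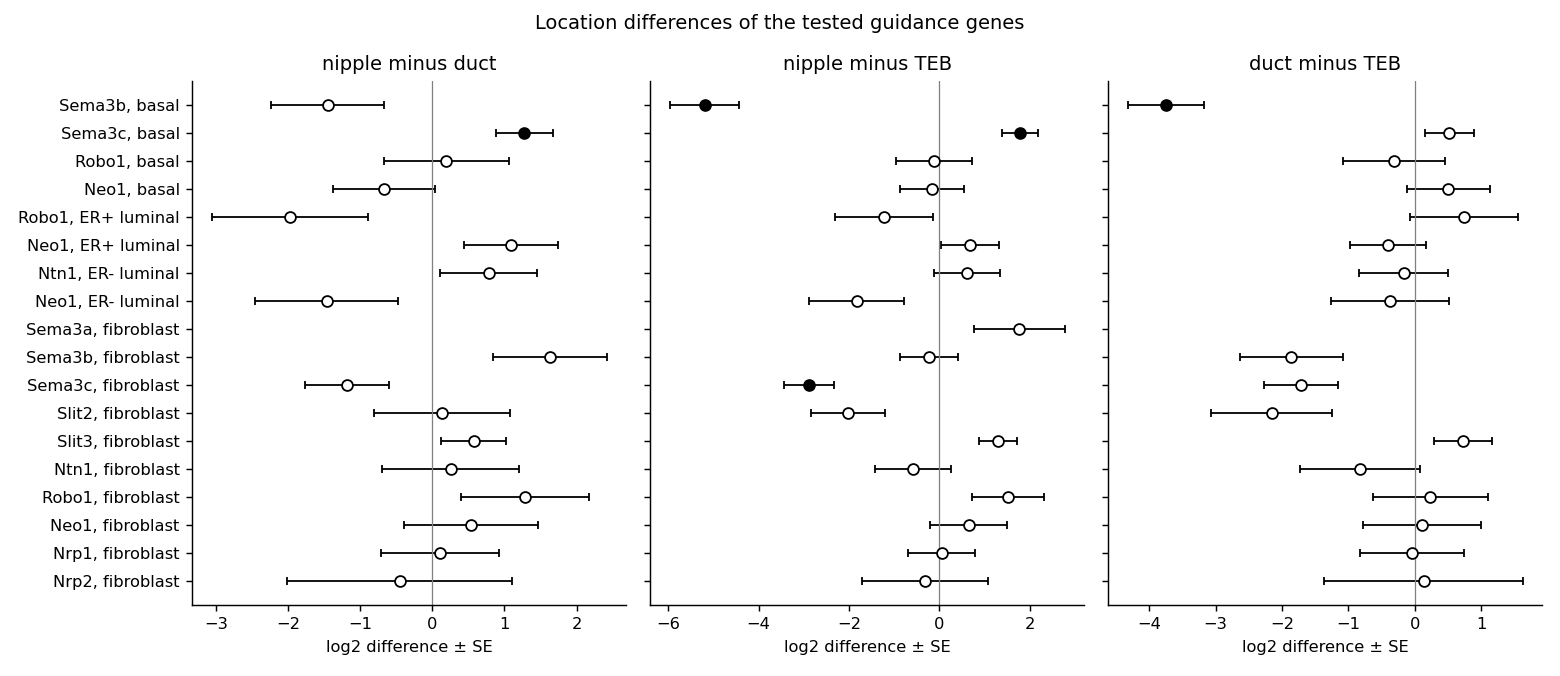
Log2 differences between locations with SE for each guidance gene tested in a class; filled points passed an adjusted p of 0.05, and the pairs with Sema3a at 0 in duct are left out. The filled points are Sema3b and Sema3c in basal-like cells and Sema3c in fibroblast-like cells.

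Nrp1 and Nrp2, which bind class 3 semaphorins and vascular endothelial growth factors, had their highest class means in myeloid-like cells. Pooled by cluster, however, Nrp1 was higher in fibroblast-like cluster 10 (139 CPM) than in the myeloid-like cluster (103 CPM). Nrp1 was 210 and 69.0 CPM in duct fragments D61 and D62, and 129.6, 136, 0, 18.4 and 230 CPM in TEB fragments T31, T32, T33, T34 and T43. Nrp2 was 168 and 123 CPM in D61 and D62, and 40.5, 164, 25.4, 18.4 and 97.0 CPM in the same TEB fragments. With 2 duct fragments and no nipple fragment of at least 5 myeloid-like cells, no test across locations was made.

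Fibroblast-like cells had Nrp1 at 55.4 ± 36.2 CPM (SD, n = 13) and Nrp2 at 5.54 ± 6.96 CPM. Nrp1 was 43.6 to 77.6 CPM in nipple, 0 to 112 in duct and 0 to 115 in TEB, with D32 and T42 at 0, and the groups overlapped (edgeR adjusted p = 0.998). Its pooled level by cluster ran from 15.5 CPM in TEB cells of cluster 7 to 130 CPM in TEB cells and 169 CPM in duct cells of cluster 10.

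Epithelial cells had little Nrp1. The Nrp2 mean of basal-like cells was above the 5.54 CPM of fibroblast-like cells, with SDs of 13.7 and 6.96 CPM. Nrp1 averaged 2.16, 0.67 and 0.30 CPM in basal-like, ER+ and ER- luminal-like cells, with 24, 12 and 2 UMIs against 14.8, 24.4 and 5.96 expected from other wells. Nrp2 averaged 10.3 CPM in basal-like cells, with 84 UMIs against 6.44 expected, in 15 of 294 cells, and reached 46.3 CPM in T32, 29.5 in D62 and 28.7 in N24. In ER- luminal-like cells Nrp2 had 0 UMIs, and 0 of 178 thinned cells allows a share of cells with a UMI of up to 1.69%.

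Whether a location difference changed between epithelial classes was tested with a class by location term and the fragment as a block. No member was called by edgeR between basal-like and ER+ luminal-like (5 tested), basal-like and ER- luminal-like (4 tested) or ER+ and ER- luminal-like cells (2 tested), beside 6.50%, 2.75% and 1.82% of genes. At an unadjusted p under 0.05 the counts were 2, 1 and 1, beside 1834 of 9390, 1008 of 7936 and 915 of 8549 genes, and DESeq2 called 1, 1 and 0, the called gene being Sema3b each time. The edgeR adjusted p of Sema3b was 0.177 against ER+ and 0.0887 against ER- luminal-like cells, where its level did not exceed 7.24 CPM in any fragment. Sema3b had 30 UMIs in ER+ luminal-like cells against 77.2 expected from other wells, and 6 in ER- luminal-like cells against 8.94. Its luminal UMIs were below these expected numbers, which can be too high, and were read as background. These terms thus set the basal-like change beside a gene not above that estimate in luminal cells.

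Other genes of these pathways were taken from a list of 49 semaphorins, plexins, Robo, netrin, UNC5, RGM, FLRT and srGAP genes, of which 46 had a row. In basal-like cells 9 were tested and 2 called by edgeR, Ntng1, a membrane-anchored netrin, and Sema4a, a membrane-bound semaphorin. The share called over all genes in that test was 20.6%, so the list's count was near the background. DESeq2 also called Sema6a, whose edgeR adjusted p was 0.0909. Median log2 differences of the 9 were -0.53 for nipple minus duct and -0.13 for nipple minus TEB, beside -0.04 and -0.05 over all genes tested.

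Ntng1 was 5.37 to 41.3 CPM in nipple, 0 to 28.1 in duct and 0 to 2.90 in TEB basal-like cells. Nipple exceeded TEB by 4.51 (SE 1.11; edgeR adjusted p = 0.0036) and duct exceeded TEB by 3.87 (SE 1.06; edgeR adjusted p = 0.0132), with every nipple fragment above every TEB fragment. Sema4a had the reverse order at 1.53 to 7.54 CPM in nipple, 8.66 to 68.3 in duct and 35.7 to 56.1 in TEB. Its nipple minus TEB difference was -3.31 (SE 0.81; edgeR adjusted p = 0.0033), and the nipple fragments were below all others.

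None of the other guidance genes was called by edgeR or DESeq2 in the remaining classes. There were 10 tested in ER+ luminal-like cells, 2 in ER- luminal-like cells and 15 in fibroblast-like cells, of which 3, 0 and 4 had an unadjusted p under 0.05, beside 1580 of 8707, 885 of 5705 and 1072 of 8489 genes.

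Over 66 class by fragment sums, the genes whose log2(CPM + 1) ran most like each member are given as a description; the sums share fragments and differ in depth. Sema3b was most like Bmp7 (Pearson r = 0.82), Fbln1 (0.82) and Vcan (0.80). Sema3c was most like Tgfbr3 (0.88), Pdpn (0.87) and Antxr1 (0.83), and Slit3 was most like Dcn (0.90), Rarres2 (0.89) and Col5a1 (0.89). Slit2 ran with Cygb (0.80), Kera (0.77) and Thy1 (0.75), Nrp1 with Hmox1 (0.82), Mndal (0.81) and G530011O06Rik (0.80), and Nrp2 with Ftl1 (0.73), Laptm5 (0.72) and Fcer1g (0.71). The best values of Robo1 (Gpc1, Ppap2a and Vcan, 0.70 to 0.66), Neo1 (Erc1, Noc4l and Hs2st1, 0.65 to 0.62), Ntn1 (Mgst1, Kcnk5 and Adamts1, 0.64 to 0.60) and Sema3a (Chst11, Gpr153 and Crispld1, 0.61 to 0.59) were lower.

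In the GRCm38 annotation Sema3a, Sema3c and Slit2 lie on the plus strand of chromosome 5, at 13125414 to 13602565, 17574281 to 17730268 and 47983138 to 48307733. Sema3b lies on the minus strand of chromosome 9, at 107597674 to 107609229, and Neo1 on the same strand at 58874687 to 59036441. Slit3 (plus strand, 35121224 to 35708507) and Ntn1 (minus strand, 68209364 to 68400823) are on chromosome 11. Robo1 is on chromosome 16 at 72308306 to 73046095, Nrp1 on chromosome 8 at 128358604 to 128503363 and Nrp2 on chromosome 1 at 62703285 to 62818695, each on the plus strand. No other annotated gene overlaps Sema3b or Sema3c, and the genes annotated across the other loci had no row in the table.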

How the data were processed

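Cells of a fragment were sorted singly into plate wells, ERCC RNA was added, and 3′ ends were sequenced by a SMART-seq protocol that tags molecules with UMIs. The authors trimmed reads with Trim Galore, handled UMIs with UMI-tools, aligned with STAR to mm10 and counted with featureCounts; the deposited values are UMI counts per gene and cell, with no normalization. Versions are not given in the sources used here. The table held 1419 cells. The 67 spike-ins, 0.758% of UMIs, were left out of sums.

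Cells with 5000 to 120000 UMIs, 200 to 6000 genes and under 5% spike-in UMIs were kept (1317). Clusters came from Seurat 5.3.0 (R 4.3.3; 14 components of the 2000 most variable genes, resolution 0.5; spike-ins, cell cycle and gene number regressed out). Clusters were called "X-like" from marker lists; conditions of that rule were set after clusters were seen, and the names are rebuilt ones. Wells were sorted as single cells and no doublet caller was run.

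For every class, UMI counts of a fragment's cells were added up where it held at least 5, and these sums were tested with edgeR 4.0.16 (quasi-likelihood, TMM, filterByExpr, Benjamini-Hochberg over all genes tested, threshold 0.05) across the 3 locations and by pair. The filter keeps genes high in any location, so members passing it are not a random part of the list. TMM factors lay between 0.90 and 1.15. DESeq2 1.42.0 was an alternative. Sums ran from 302554 to 1210315 UMIs (basal-like), 315342 to 2061534 (ER+), 239637 to 726350 (ER-) and 89639 to 1513801 (fibroblast-like). On simulated counts the fits recovered 61.1%, 67.0%, 57.9% and 37.6% of changed genes across locations in basal-like, ER+ luminal-like, ER- luminal-like and fibroblast-like cells. For the class by location terms, recovery was 30.1% (basal-like and ER+), 32.3% (basal-like and ER-) and 32.5% (ER+ and ER- luminal-like). The changes, of up to 3 log2 units either way, were simulated in TEB alone. All counts were drawn around a pooled profile shared by the fragments and, for the terms, by both classes. These shares therefore do not carry over to other differences or to single members.

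The members, the wider guidance list and the tests were chosen with earlier results of these data known. Named genes are the members, other guidance genes called in a class, and the 3 genes most correlated with each member among genes with a mean of at least 20 CPM. Alternatives were another test, normalization, filter, cell limit, clustering and depth, and each fragment left out in turn.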

Additional observations from a re-analysis of the deposited data

Results flagged for a closer look

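In 53 groups of 4 to 6 fragments of a member in a class and location, 8 had a fragment that lay far from the others by Dixon's test. For normally distributed values chance gives this in about 1 in 20 groups. Skewed levels with zeros are not so distributed, so the count does not show an excess over chance. Sema3b in nipple basal-like cells was 33.9 CPM in N21 and at most 1.79 CPM in the other 3 fragments. Sema3b in duct fibroblast-like cells was 69.3 CPM in D52, and Slit3 in TEB fibroblast-like cells was 133 CPM in T31. Ntn1 in nipple ER- luminal-like cells was low in N22, at 25.04 CPM, and Neo1 in the same cells was 39.1 CPM in N23 and 0 in the others. Neo1 in duct fibroblast-like cells was 124 CPM in D61. Nrp2 in fibroblast-like cells was 15.5 CPM in nipple fragment N21 and 20.01 CPM in TEB fragment T34.

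The location differences of Sema3b and Sema3c were unlike between basal-like and fibroblast-like cells by the class by location term (edgeR adjusted p = 0.00538 for Sema3b and 3.94e-04 for Sema3c). Leaving out each of the 13 fragments in turn gave 2 called members each time. That pair of classes was chosen after the location differences were seen.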

How the results depend on the processing

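No alternative turned the direction of a location difference given with a call for Sema3b or Sema3c. In fibroblast-like cells DESeq2 called 2 members (Sema3a and Sema3c), and fragments with at least 10 cells also gave 2 (Sema3b and Sema3c), against 1. The class by location term of basal-like and ER+ luminal-like cells, with 0 called, gave 1 with DESeq2 or classes from marker scores (Sema3b) and 1 with no fragment block (Sema3c). That of basal-like and ER- luminal-like cells, with 0 called, gave 1 (Sema3b) with DESeq2, with no filter on low counts and with classes from marker scores. The cause was not tested. Leaving out 1 fragment gave 0 to 1 called members in ER- luminal-like cells (Neo1 without N23) and 0 to 1 for the term of basal-like and ER+ luminal-like cells (Sema3b without N21), and left the other counts as they were. The nipple minus TEB difference of Sema3b ran from -8.63 to -4.74, and reached -8.88 with classes from marker scores. The nipple minus duct difference of Sema3c in basal-like cells was also lost with no filter on low counts (1.30, edgeR adjusted p = 0.0557). Of 50 shares of cells with a UMI, 34 moved when cells were not thinned. With no regression of cell covariates, basal-like cells and the 3 terms that use them could not be fitted.

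Duct and TEB share the title numbers 31 and 32. Correlations of the deviations of same-numbered fragments were -0.015 to 0.049. With so few such pairs in a class, these values cannot decide whether the fragments share an animal. The main fits did not pair fragments by number. With the numbers as a replicate block, only D31, D32, T31 and T32 could be used. In that fit duct minus TEB of Sema3b in basal-like cells was -4.48 (edgeR adjusted p = 1.74e-09). So few fragments barely estimate the spread, so this p-value is not firmer than that of the main fit. For the same reason the counts that follow cannot decide whether the numbers mark animals. The block gave 308 called genes against 133 without it on the same fragments in basal-like cells, and 221 against 154 in ER+ luminal-like cells.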

Other observations

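Classes too small for a test also held guidance transcripts. The values below were pooled over fragments and have no replicate error. The 19 pericyte-like cells had 11 UMIs of Slit3 (38.7 CPM), 7 of Neo1 (24.6 CPM) and 6 of Nrp1 (21.1 CPM, all from 1 fragment), and no more than 1 UMI of any other member. The 72 unnamed cells, in whose cluster all 7 endothelial markers were detected and mast cell genes led, had 50 UMIs of Nrp1 (18.1 CPM), 32 of Nrp2 (11.6 CPM) and 23 of Robo1 (8.34 CPM). Myeloid-like cells, which had the highest class means of the neuropilins, had 5 UMIs or fewer of each semaphorin, Slit and netrin member in 78 cells, and 16 of Neo1 (9.42 CPM).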
